A study of Mus musculus with 18 samples.

Results

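Peg3, Peg10, Mest, Sgce, Grb10, Plagl1, Impact, Snrpn and Igf2r are 9 protein-coding genes of the mouse that carry a parental imprint and lie outside the Dlk1 and H19 domains. They were listed by name, with earlier results of these data known, out of 54446 genes in the deposited count table. Their levels were followed through all 18 libraries. The study measured RNA from nuclei of mouse embryonic stem cells labelled as strain C57BL/6, after ribosomal RNA had been removed. The Ythdc1 arm asked how nuclear RNA decays when YTHDC1, the nuclear protein that reads N6-methyladenosine (m6A), is lost. The Mettl3 arm compared gene expression with and without METTL3, the enzyme that writes m6A.

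The Ythdc1 arm held 12 libraries in 6 groups of 2. A control and a line with the label cKO (conditional knockout) were each sampled at 0, 3 and 6 h in actinomycin D, which blocks transcription, at 5 µg/ml. The Mettl3 arm held 6 libraries, with 2 each from a control, a knockout labelled KO1 and a knockout labelled KO2, all at 0 h. Every group was grown with serum, LIF and the inhibitors CHIR99021 and PD0325901 for 48 h before the drug step. How the conditional allele was deleted, which exons the knockouts lack and whether KO1 and KO2 are single clones is not given in the sources used here. Nothing in the labels says whether the libraries of a group came from separate cultures, so the p-values measure the spread between these libraries alone, which may be technical.

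Imprinted genes are read mainly from 1 parental copy, because a mark of DNA methylation laid down in the egg or the sperm silences the other copy or an RNA that acts on it. Zfp57 and Zfp445 are zinc finger proteins that bind the methylated copy and, with Trim28, protect the mark when the embryo erases most other methylation. Embryonic stem cells are known to lose or gain such marks in culture. Peg3, Peg10, Mest, Sgce, Plagl1, Impact and Snrpn are paternally expressed in most tissues, while Grb10 and Igf2r are maternally expressed in most tissues. The deposited table has 1 count per gene and does not separate the parental copies, so every level below is the sum of both.

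In GENCODE M21 on the mm10 genome, 3 of the 9 genes lie on chromosome 6. Sgce (epsilon-sarcoglycan, a membrane glycoprotein) at chr6:4674350-4747207 on the minus strand and Peg10 (a protein derived from a retrotransposon, needed in placenta) at chr6:4747306-4760517 on the plus strand start 99 bases apart and are read in opposite directions. Mest, which codes for a protein of the hydrolase fold, is at chr6:30723547-30748465. Peg3, a large zinc finger protein, is at chr7:6703892-6730431, and Snrpn, which codes for the SmN protein of the spliceosome, is at chr7:59982495-60140219. Grb10, an adaptor that damps signalling from insulin and growth factor receptors, is at chr11:11930508-12038683. Plagl1, a zinc finger transcription factor, is at chr10:13060504-13131694. Impact is a regulator of the amino acid sensor GCN2, and its position is given with its values. Igf2r, the receptor that clears IGF2 and carries mannose 6-phosphate proteins to lysosomes, is at chr17:12682406-12769664.

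For 6 of the 9 genes, promoters were taken from the RefSeq table of build GRCm38.p6 (250 bases before to 50 bases after a start site). Peg10 and Sgce had no entry there, and promoters of Impact were not examined. Mest, Grb10, Plagl1 and Peg3 are shown because they gave the largest differences described below, between the Mettl3 lines or in decay. Each is written 5′ to 3′ on the strand of the gene, and capitals mark the ZFP57 hexamer TGCCGC, searched on both strands, so that GCGGCA is the same site on the other strand. The table lists 3 windows for Mest and 2 for Grb10, and for each of these genes the window shown is one that holds a hexamer. The Mest window shown lies at chr6:30737800-30738099 on the plus strand, that of Grb10 at chr11:12037371-12037670 on the minus strand, that of Plagl1 at chr10:13090582-13090881 on the plus strand and that of Peg3 at chr7:6730370-6730669 on the minus strand.
Mest: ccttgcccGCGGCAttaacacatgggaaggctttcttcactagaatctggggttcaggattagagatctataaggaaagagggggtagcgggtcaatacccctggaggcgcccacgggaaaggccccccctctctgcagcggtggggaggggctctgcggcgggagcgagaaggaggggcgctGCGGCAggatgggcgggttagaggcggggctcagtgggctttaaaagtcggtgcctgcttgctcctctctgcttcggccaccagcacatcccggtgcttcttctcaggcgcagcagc
Grb10: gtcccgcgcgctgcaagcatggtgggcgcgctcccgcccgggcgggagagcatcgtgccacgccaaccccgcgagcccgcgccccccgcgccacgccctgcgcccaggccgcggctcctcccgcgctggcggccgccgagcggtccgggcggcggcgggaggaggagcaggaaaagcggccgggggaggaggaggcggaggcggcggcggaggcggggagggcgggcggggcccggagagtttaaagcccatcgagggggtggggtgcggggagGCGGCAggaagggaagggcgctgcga
Plagl1: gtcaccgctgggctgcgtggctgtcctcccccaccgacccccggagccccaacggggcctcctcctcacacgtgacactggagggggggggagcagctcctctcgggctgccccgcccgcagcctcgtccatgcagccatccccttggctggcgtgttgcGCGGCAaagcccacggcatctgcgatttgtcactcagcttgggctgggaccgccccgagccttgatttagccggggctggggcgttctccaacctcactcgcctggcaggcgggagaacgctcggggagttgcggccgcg
Peg3: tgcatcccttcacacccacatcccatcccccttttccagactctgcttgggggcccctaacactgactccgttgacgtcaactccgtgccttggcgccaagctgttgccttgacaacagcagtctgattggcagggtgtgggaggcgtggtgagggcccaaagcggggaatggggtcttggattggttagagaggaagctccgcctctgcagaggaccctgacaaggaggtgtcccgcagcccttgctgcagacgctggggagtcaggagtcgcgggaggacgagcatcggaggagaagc
The window shown for Mest held 2 hexamers, those of Grb10 and Plagl1 held 1 each, and that of Peg3 held 0. Of the other Mest windows, that at chr6:30737803-30738102 overlaps the one shown and held the same 2, and that at chr6:30733256-30733555 held 0, with 8 CG dinucleotides. The other Grb10 window, at chr11:12027922-12028221, held 0 hexamers and 9 CG dinucleotides, more than 54.2% of promoters. Among all 32817 promoters of this length, 11.6% held at least 1 hexamer and 1.53% held 2 or more. The Grb10 window shown held 45 CG dinucleotides, more than 98.1% of promoters, against a median of 7 over all of them; those shown for Plagl1, Mest and Peg3 held 26, 17 and 13. The Igf2r promoter at chr17:12769657-12769956 held 34 CG dinucleotides and 0 hexamers. The YY1 core GCCATNTT was in 6.04% of promoters and in none of the windows of the 6 genes. A match is a stretch of letters, not a measured binding site.

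Gene reads per library ranged from 4950973 to 30989044. The labels were checked on the targeted genes, counted over the whole gene. Ythdc1 was at 139 CPM in control and 132 CPM in libraries labelled cKO at 0 h (log2 -0.070 ± 0.079, adjusted p = 0.557), and lower in cKO at 6 h by 1.38 ± 0.10 on the log2 scale. Mettl3 was at 34.3 CPM in control, 31.9 in KO1 (adjusted p = 0.316) and 22.4 in KO2, a fall of 0.61 ± 0.081 that scaling to spike-in RNA took to -0.048. A deletion of a few exons need not lower a count over the whole gene, so these counts check the labels in part only, and the groups are called by their labels. All 10 pluripotency markers were detected in every group, with summed levels from 3360 to 5580 CPM. The 12 fibroblast feeder markers summed to 7.71 to 22.6 CPM in the Ythdc1 arm, but to 211 to 229 CPM in the Mettl3 control, 215 to 218 in KO1 and 603 to 604 in KO2.

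CPM here is a read count scaled to library size and TMM factor, so a change is measured against the bulk of genes in a library. Scaling to spike-in reads instead moved the median change of all genes from 0.014 to -0.36 (log2) for cKO against control at 0 h, to -0.46 and -0.88 for control at 3 and 6 h, to -0.96 for cKO at 6 h, and to 0.17 and 0.53 for KO1 and KO2. For cKO at 3 h it moved it to 1.86, because spike-in reads were 0.0272% to 0.0278% of gene reads in those 2 libraries and 0.0772% to 0.189% in the other 10 of the arm. Scaling to library size alone moved the median by over 0.1 in control at 6 h, to -0.16, in the decay difference at 6 h, to 0.11, and in cKO against control at 6 h, from -0.021 to 0.084. In bulk RNA, fewer cells of a type and less RNA per cell cannot be told apart. Mest shares 912 exonic bases, 23.1% of its exonic length, with Copg2 on the opposite strand, and Snrpn shares 589 bases (27.3%) with Gm38393 and 216 (10%) with Snurf on the same strand. Since the sources used here do not state the strand setting of the counting, Mest and Snrpn are uncertain where exons overlap, and the share of unique reads left out as ambiguous was 2.67% to 3.51% at 0 h and 9.29% to 10.2% at 6 h in the Ythdc1 arm, and 4.88% to 6.51% in the Mettl3 arm.

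Per kilobase of exon, the order of levels in Ythdc1 control cells at 0 h ran from Igf2r, at 33.4 ± 1.14 CPM per kb (SD, n = 2), through Impact (24.9 ± 1.43) and Peg10 (17.6 ± 0.77) to Plagl1 (15.6 ± 0.93), Snrpn (15.5 ± 0.44), Peg3 (14.6 ± 0.25) and Mest (14.1 ± 0.032). Plagl1 and Snrpn overlapped, and the other neighbours in the order did not. Grb10, at 1.81 ± 0.15, and Sgce, at 0.305 ± 0.045, were far below the rest. In cKO at 0 h Peg10 led at 50.4 ± 0.39 CPM per kb, above Igf2r at 47.6 ± 0.53. In the Mettl3 control Igf2r (36.5 ± 0.39) and Mest (34.5 ± 1.47) led. In KO1 Grb10 stood at 21.6 ± 0.50, overlapping Peg10 at 21.8 ± 0.75, and in KO2 Mest was down to 6.87 ± 0.0020, above Sgce alone. The arms were scaled separately, so levels of 1 arm were not tested against the other.

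**Figure D1:**
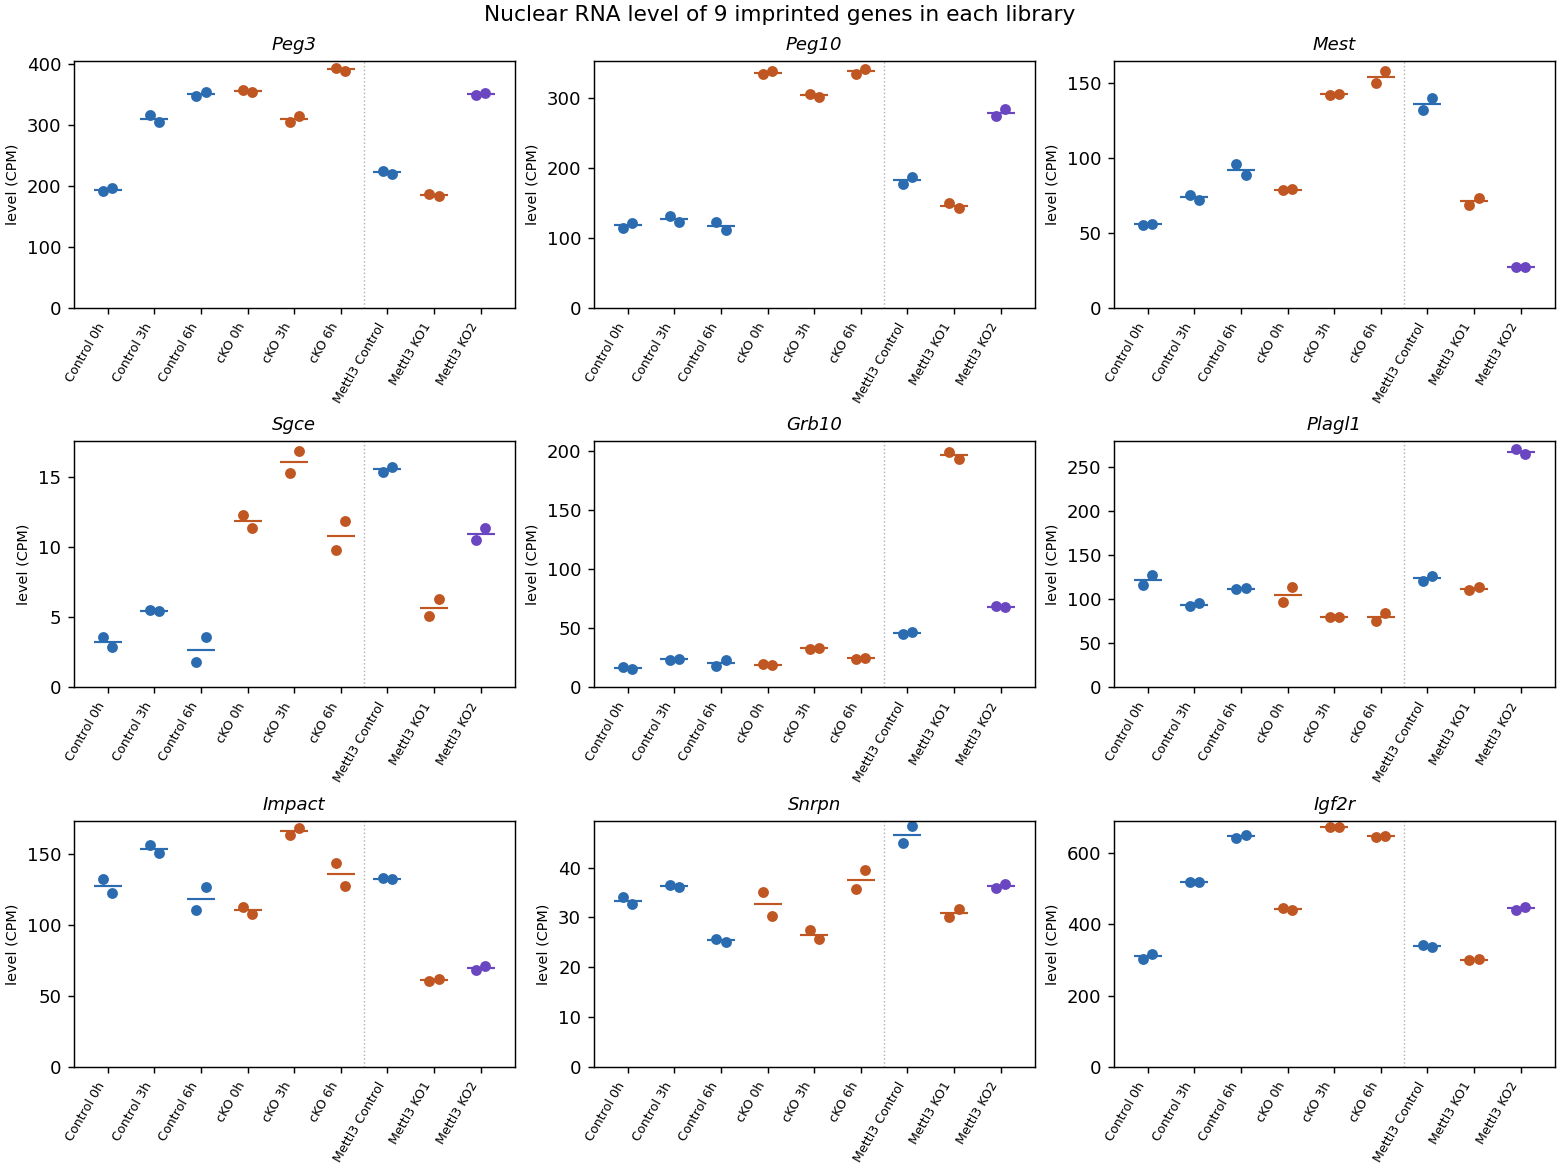
Level in CPM (vertical axes, from 0) of each of the 9 genes in each library, 2 points per group with a line at their mean; groups left of the dotted line are the Ythdc1 arm (control blue, cKO orange), those right of it the Mettl3 arm (control blue, KO1 orange, KO2 purple). Peg10 sits between 112 and 131 CPM in the 6 control libraries and between 302 and 341 CPM in the 6 cKO libraries, Grb10 stands out at 193 and 199 CPM in KO1, and Mest drops to 27.1 CPM in both KO2 libraries.

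At 0 h, before transcription was stopped, the divergent pair Peg10 and Sgce were the members that differed most between cKO and control, followed by Peg3, Igf2r and Mest. Of the 9 genes, 5 rose, 2 fell and 2 did not pass the test; over all 17900 genes tested, 13.5% rose and 15.8% fell. The median change of the 9 was 0.50 (log2), against 0.014 over all genes. Scaled to spike-ins, 4 rose and 3 fell, against 4.41% and 42.3% of all genes, with a median of 0.13, and -0.36 over all genes.

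Peg10 was at 114 and 121 CPM in control and at 334 and 338 CPM in cKO. Its cKO libraries were far above its control libraries, a change of 1.51 ± 0.062 (log2, SE; adjusted p = 7.47e-21), or 2.86-fold. Sgce, its neighbour, was at 3.58 and 2.90 CPM in control and at 12.3 and 11.4 CPM in cKO, from 33 and 38 reads against 113 and 102. The groups were again well apart, and Sgce rose by 1.89 ± 0.23 (adjusted p = 2.6e-08), or 3.7-fold. Scaled to spike-ins, both still rose, Peg10 by 1.15 and Sgce by 1.52. The 22 other coding genes tested within 5 Mb of the pair had a median change of 0.089, with a range of -0.87 to 1.85; Peg10 lay above 21 of them and Sgce above all 22. The 10 trophoblast markers, of a lineage in which Peg10 is abundant, summed to 36.2 to 37.2 CPM in control and 23.2 to 25.7 in cKO. Tpbpa and Prl3d1 were at 0 in both groups, and of the 7 tested, 0 rose and 2 fell. The 12 feeder markers went the other way, from 7.71 to 8.35 CPM in control to 13.9 to 17.1 in cKO, and of 7 tested 3 rose and 0 fell. Of the 10 pluripotency markers 1 rose and 7 fell, and of 5 primitive endoderm markers tested 0 rose and 1 fell. Over all genes 13.5% rose and 15.8% fell. The part of other cells in these levels was not tested.

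Peg3 was at 192 and 196.5 CPM in control and at 357 and 354 CPM in cKO, a rise of 0.87 ± 0.054 (adjusted p = 1.64e-15). Igf2r, at 303 and 318 CPM in control, reached 446 and 439 CPM in cKO and rose by 0.51 ± 0.048 (adjusted p = 1.01e-10). Neither gene had overlapping libraries. Spike-in scaling left Peg3 higher by 0.51 and Igf2r by 0.14. Mest, at 55.5 and 55.7 CPM in control, was at 78.3 and 79.2 CPM in cKO and rose by 0.50 ± 0.073 (adjusted p = 1.14e-06). With spike-in scaling its change was 0.13 and did not pass the test (adjusted p = 0.174).

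Plagl1 and Impact were slightly lower in cKO. Plagl1 was at 117 and 127 CPM in control and 96.2 and 114 CPM in cKO, a fall of 0.22 ± 0.076 (adjusted p = 0.0277). Impact was at 133 and 122 CPM in control and 113 and 108 CPM in cKO, a fall of 0.21 ± 0.073 (adjusted p = 0.0275). Each call rested on single libraries: that of Plagl1 was lost without control replicate 2 (-0.16) or cKO replicate 1 (-0.10), and that of Impact without control replicate 1 (-0.16) or cKO replicate 2 (-0.19). Grb10, at 17.5 and 15.5 CPM in control and 19.7 and 18.7 in cKO, did not pass (0.23 ± 0.13, adjusted p = 0.219), and its sign turned to -0.14 with spike-in scaling. Snrpn, with overlapping groups at 34.0 and 32.7 against 35.1 and 30.4 CPM, did not pass either (-0.025 ± 0.11, adjusted p = 0.891); scaled to spike-ins it fell by 0.40 (adjusted p = 0.00236).

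**Figure D2:**
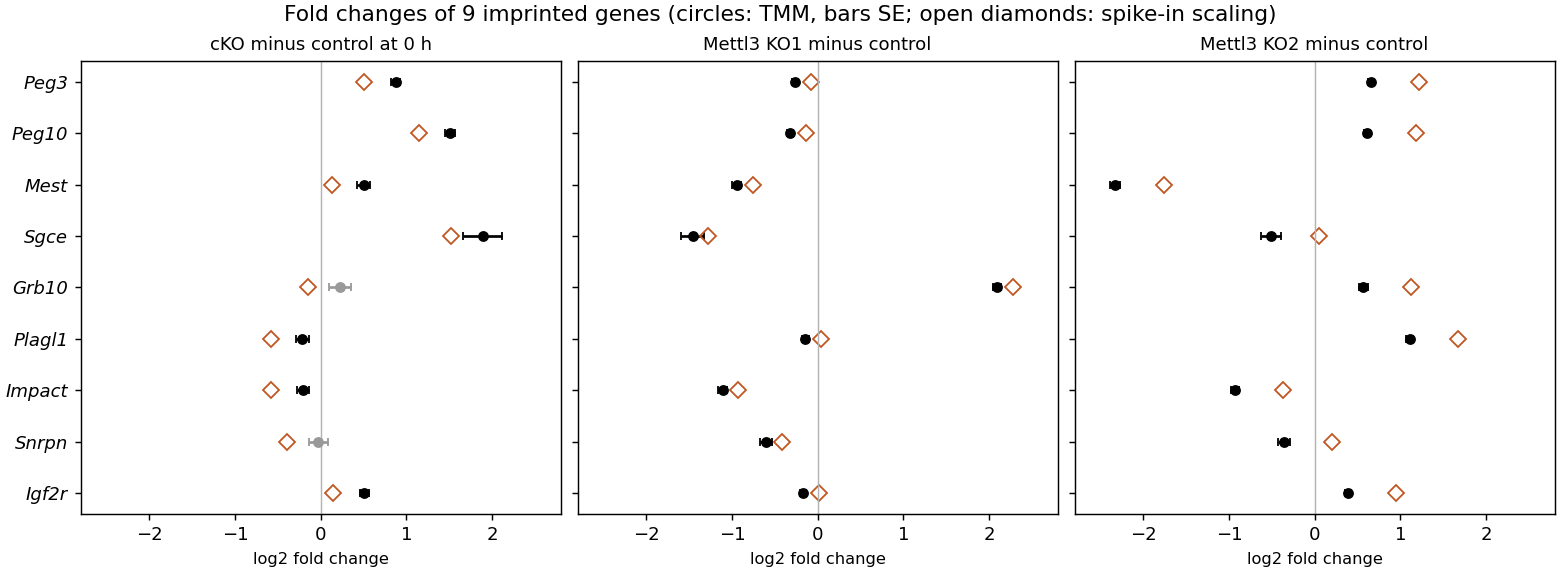
Log2 fold change (horizontal axes) of the 9 genes in 3 comparisons; filled circles are TMM values with SE bars (black where the adjusted p is below 0.05, grey where not), open diamonds are values scaled to spike-in reads. In cKO at 0 h Peg10 (1.51) and Sgce (1.89) stand to the right under both scalings, and in the Mettl3 lines Mest (-0.94 and -2.33) stands to the left under both.

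After 3 h of actinomycin D in control cells, 6 of the 9 genes rose relative to the typical gene, 1 fell and 2 did not pass; over all genes 29.3% rose and 27.1% fell. After 6 h, 4 rose, 1 fell and 4 did not pass, against 33.1% and 31.7% of all genes. The medians of the 9 were 0.40 and -0.0060, and over all genes 0.065 and 0.033. Scaled to spike-ins, 2 rose and 4 fell at 3 h, against 7.19% and 51.1% of all genes, and 1 rose and 7 fell at 6 h, against 7.33% and 63.0%. With library size alone, 3 rose and 4 fell at 6 h, against 26.3% and 38.2% of all genes.

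Of the 9 genes, Igf2r and Peg3 rose most over 6 h on the TMM scale. Igf2r climbed from 303 and 318 CPM at 0 h to 519 and 517 CPM at 3 h and 643 and 651 CPM at 6 h, a change of 1.06 ± 0.048 over 6 h (adjusted p = 7.71e-21). Scaled to spike-ins the same change was 0.14 (adjusted p = 0.0226). Peg3 climbed from 192 and 196.5 CPM to 316 and 305 CPM at 3 h and 348 and 354 CPM at 6 h, by 0.85 ± 0.053 over 6 h, which became -0.065 with spike-ins (adjusted p = 0.344). Mest went from 55.5 and 55.7 CPM to 75.1 and 71.9 CPM at 3 h and 95.7 and 88.5 CPM at 6 h, by 0.73 ± 0.072 over 6 h, which turned to a fall of 0.19 with spike-ins. In none of these 3 genes did the 0 h and 6 h libraries overlap.

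Of the other members, Snrpn fell by 0.39 ± 0.11 over 6 h (adjusted p = 0.00173), from 34.0 and 32.7 CPM to 25.8 and 25.0, and by 1.31 with spike-ins. Peg10 did not pass at 3 h (0.10) or 6 h (-0.0060), with levels from 112 to 131 CPM throughout, and its spike-in values were falls of 0.42 and 0.92. Plagl1 fell by 0.38 ± 0.074 at 3 h, and at 6 h it did not pass (-0.12). Impact rose by 0.27 ± 0.070 at 3 h, which turned to -0.26 with spike-ins and did not pass without control 0 h replicate 2 (0.21, adjusted p = 0.0529). Sgce rose by 0.78 ± 0.24 at 3 h and did not pass without the same library (0.61, adjusted p = 0.112) or with spike-ins (0.25), and at 6 h it did not pass (-0.20 ± 0.29). Grb10 rose by 0.54 ± 0.12 at 3 h, a value of 0.0078 with spike-ins. Its rise of 0.35 ± 0.13 at 6 h (adjusted p = 0.0206), which turned to -0.58 with spike-ins, did not pass without control 0 h replicate 2 (0.24) or control 6 h replicate 2 (0.16), nor with either DESeq2 setting, library size alone or another filter (0.15 to 0.30). With library size alone, Peg10 (-0.20), Plagl1 (-0.32) and Impact (-0.30) passed as lower at 6 h. Plagl1 did so with DESeq2 size factors (-0.18) and the 50-read filter (-0.20) too, and Impact with the 50-read filter (-0.18). With spike-ins Plagl1, Impact and Sgce fell by 1.04, 1.02 and 1.11 at 6 h.

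In cKO cells, 5 of the 9 rose and 4 fell at 3 h, against 29.6% and 29.8% of all genes, and at 6 h 5 rose, 1 fell and 3 did not pass, against 29.6% and 31.3%. The medians of the 9 were 0.44 and 0.22, and over all genes 0.027 and 0.0085. Scaled to spike-ins, all 9 rose at 3 h, the time at which the cKO libraries held few spike-in reads, against 83.8% and 2.69% of all genes that rose and fell. At 6 h 0 rose and 8 fell with spike-ins, against 3.28% and 68.4%.

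Mest went from 78.3 and 79.2 CPM to 142 and 143 CPM at 3 h and to 150.0 and 158 CPM at 6 h in cKO, a rise of 0.97 ± 0.070 over 6 h (adjusted p = 8.05e-15), or 0.00027 with spike-ins. Igf2r went from 446 and 439 CPM to 671 and 672 CPM at 3 h and 645 and 647 CPM at 6 h. Its rise of 0.55 ± 0.048 over 6 h turned to a fall of 0.42 with spike-ins. Peg3 went from 357 and 354 CPM to 305.5 and 315 CPM at 3 h and 395 and 388 CPM at 6 h, a fall of 0.20 ± 0.052 and then a rise of 0.14 ± 0.053 over 6 h (adjusted p = 0.0241). The latter turned to -0.83 with spike-ins, and it did not pass without control 0 h replicate 1 (0.13), cKO 0 h replicate 2 (0.12) or cKO 6 h replicate 1 (0.14) or 2 (0.15). It did not pass with either DESeq2 setting, library size alone or the 50-read filter either (0.072 to 0.12). The fall at 3 h did not pass without cKO 3 h replicate 1 (-0.15) or without a filter on low counts (-0.12).

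Plagl1 fell in cKO by 0.39 ± 0.076 at 3 h and 0.38 ± 0.079 at 6 h (adjusted p = 6.66e-05), from 96.2 and 114 CPM to 75.2 and 84.1 CPM, and by 1.36 with spike-ins at 6 h. Impact rose by 0.59 ± 0.071 and 0.29 ± 0.073, the latter a fall of 0.68 with spike-ins. Peg10 stayed between 302 and 341 CPM in cKO. Its fall of 0.15 ± 0.059 at 3 h (adjusted p = 0.0308) did not pass without control 0 h replicate 1, either control 6 h library, or any of the 6 cKO libraries, with values of -0.14 to -0.12, and at 6 h it did not pass (0.0081, or -0.96 with spike-ins, which did). Sgce rose by 0.44 ± 0.17 at 3 h, a call lost without cKO 0 h replicate 1 (0.52) or 2 (0.39) or cKO 3 h replicate 2 (0.39). Snrpn fell by 0.31 ± 0.10 at 3 h, a call lost without cKO 0 h replicate 1 (-0.18) or cKO 3 h replicate 2 (-0.24); at 6 h it did not pass (0.22, adjusted p = 0.0712), but rose without cKO 0 h replicate 1 (0.33) or cKO 6 h replicate 1 (0.28), without a filter (0.32) and in 1 fit of 18 libraries (0.28), and its spike-in value was -0.75. Grb10 rose by 0.79 ± 0.12 at 3 h and by 0.36 ± 0.13 at 6 h, and the latter turned to -0.61 with spike-ins and did not pass without cKO 0 h replicate 2 (0.32) or cKO 6 h replicate 2 (0.35), nor with DESeq2's Wald test (0.34). Without a filter on low counts the 3 h calls of Peg10 (-0.071) and Snrpn (-0.23) were lost, and that of Sgce was lost with DESeq2's Wald test (0.39) or the 50-read filter (0.33).

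The decay difference is the change from 0 h in cKO minus the same change in control, tested as an interaction. Of the 9 genes, Peg3 had the lowest value at both times on the TMM scale. At 6 h, 2 of the 9 genes were positive, 2 were negative and 5 did not pass; over all genes 9.77% were positive and 9.35% negative. With library size alone 3 were positive and 2 negative at 6 h, against 16.4% and 5.55%. At 3 h the counts were 2, 3 and 4, against 11.0% and 8.39% of all genes. The medians of the 9 were 0.018 at 6 h and -0.14 at 3 h, and over all genes -0.034 and 0.0026.

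For Peg3 the decay difference was -0.88 ± 0.075 at 3 h (adjusted p = 3.34e-11) and -0.72 ± 0.075 at 6 h (adjusted p = 4.34e-09). Of all genes, 8.96% had a lower value at 3 h and 14.1% at 6 h. With spike-ins the Peg3 value was 1.48 at 3 h and -0.77 at 6 h. The Peg3 level had started 1.83-fold higher in cKO and ended 1.12-fold higher at 6 h, so that the cKO libraries, at 395 and 388 CPM, were close to the control libraries, at 348 and 354 CPM. Igf2r had a difference of -0.51 ± 0.067 at 6 h (adjusted p = 4.52e-07; -0.56 with spike-ins), and its groups, apart at 0 h, overlapped at 6 h, at 645 and 647 CPM in cKO and 643 and 651 CPM in control. At 3 h its difference did not pass (-0.14, adjusted p = 0.169), but did with the 50-read filter (-0.175, adjusted p = 0.0379).

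Snrpn and Impact went the other way at 6 h. The difference for Snrpn was 0.61 ± 0.15 (adjusted p = 0.00301; 0.56 with spike-ins): its level fell in control to 25.8 and 25.0 CPM and stood at 35.7 and 39.5 CPM in cKO. Without cKO 6 h replicate 2 it did not pass (0.52, adjusted p = 0.0566). The difference for Impact was 0.39 ± 0.10 (adjusted p = 0.00546; 0.34 with spike-ins), and it did not pass without control 6 h replicate 1 (0.30, adjusted p = 0.065). For Plagl1 the difference at 6 h did not pass (-0.26, adjusted p = 0.09), but did without cKO 0 h replicate 1 (-0.37) or with a replicate block (-0.27). For Mest, Peg10, Sgce and Grb10 the difference did not pass at 6 h, with values of 0.25 ± 0.10, 0.014 ± 0.086, 0.11 ± 0.34 and 0.018 ± 0.18. That of Mest passed with DESeq2 size factors (0.28), library size alone (0.39), no filter (0.39) or 1 fit of 18 libraries (0.33). Spike-in scaling turned those of Peg10 and Grb10 to -0.038 and -0.035. The interval of Sgce is wide, as its level in control at 6 h rests on 16 and 40 reads.

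At 3 h the difference was positive for Mest (0.45 ± 0.099, adjusted p = 0.000859) and for Impact (0.32 ± 0.10, adjusted p = 0.0193). It was negative for Snrpn (-0.43 ± 0.14, adjusted p = 0.0303), of the opposite sign to its difference at 6 h, and for Peg10 (-0.25 ± 0.085, adjusted p = 0.0335). The last 3 calls were lost without single libraries. That of Impact was lost without control 0 h replicate 1 (0.27), control 3 h replicate 2 (0.30) or cKO 3 h replicate 2 (0.30). That of Peg10 was lost without control 0 h replicate 1, control 3 h replicate 1, cKO 0 h replicate 2 or either cKO 3 h library, with values of -0.25 to -0.20. That of Snrpn was lost without either control 0 h, either control 3 h or either cKO 3 h library, or cKO 0 h replicate 1, with values of -0.47 to -0.32. Without a filter on low counts the calls of Peg10 (-0.21) and Snrpn (-0.39) were lost, as was that of Peg10 with library size alone (-0.23) and that of Snrpn with DESeq2's Wald test (-0.41). The cKO 3 h libraries held few spike-in reads, and scaling to them made all 9 differences positive, from 1.48 for Peg3 to 2.81 for Mest, with a median over all genes of 2.36 and 89.4% of all genes positive.

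**Figure D3:**
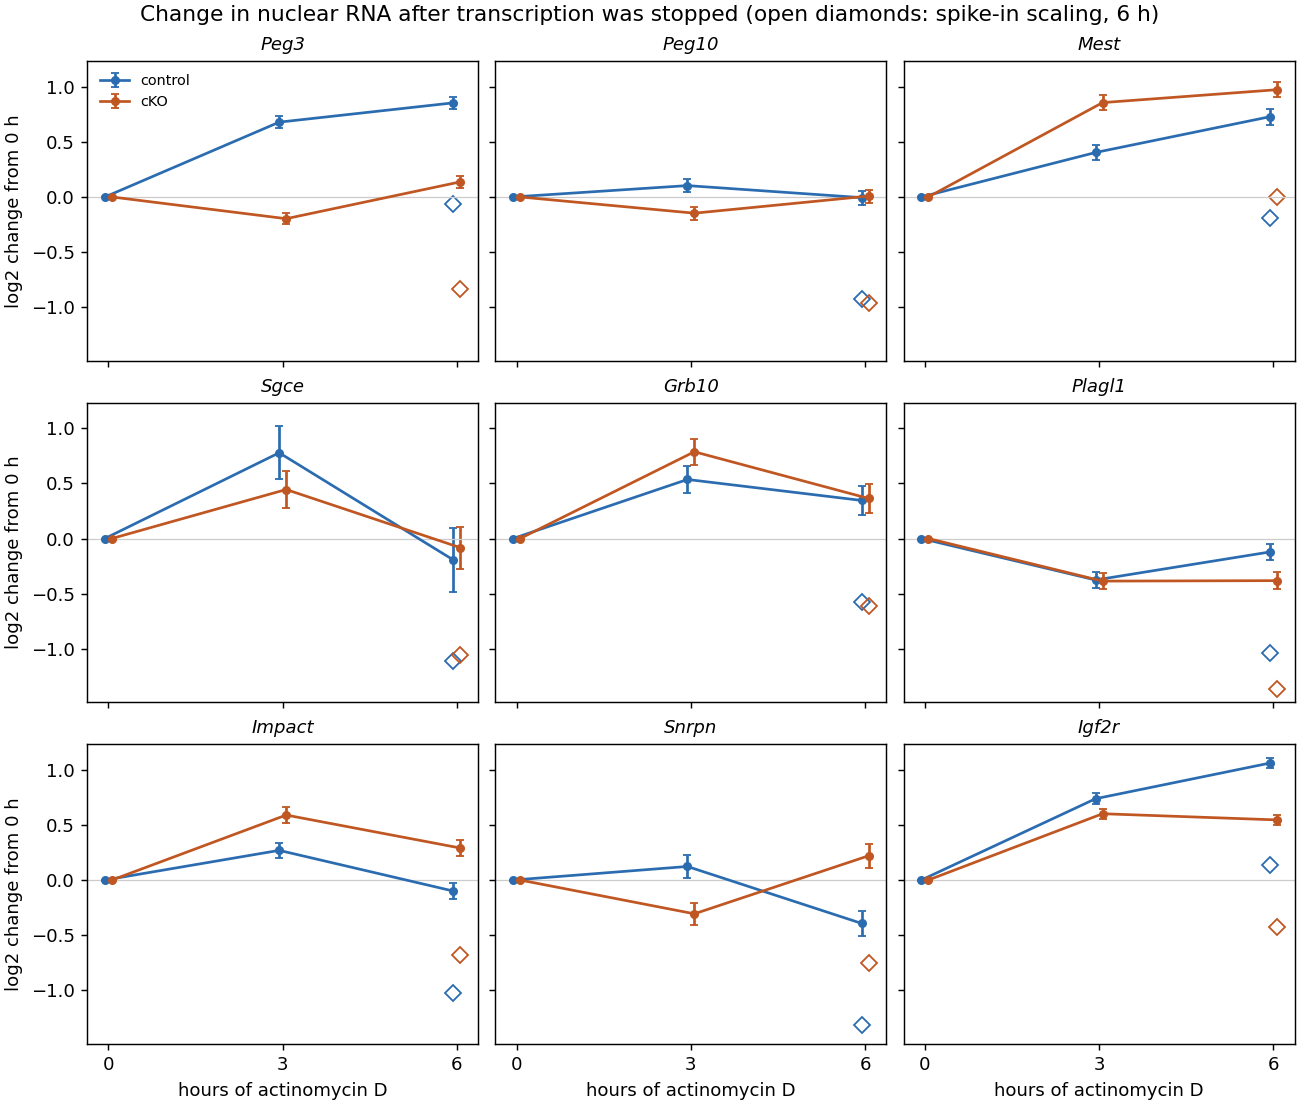
Log2 change from 0 h (vertical axes) over hours of actinomycin D in control (blue) and cKO (orange), as TMM values with SE bars; open diamonds are spike-in scaled values at 6 h, and those at 3 h are not drawn. The lines of Peg3 part by 0.88 at 3 h and 0.72 at 6 h, and its diamonds are as far apart at 6 h (0.77), while the lines of Peg10 and Grb10 lie within their SE at 6 h.

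Comparing cKO with control at 6 h directly, with the same libraries, 6 of the 9 were higher in cKO, 1 was lower and 2 did not pass, against 19.7% and 22.7% of all genes; the median was 0.24, and -0.021 over all genes. Scaled to spike-ins, 3 were higher and 4 lower, against 6.59% and 46.5%, and scaled by library size without TMM factors, 7 were higher and 1 lower, against 25.8% and 17.5%. Peg10 (1.53 ± 0.062) and Sgce (2.00 ± 0.24) kept the largest differences, at 1.11 and 1.57 with spike-ins. Mest was higher by 0.75 ± 0.069 (0.33 with spike-ins), and Snrpn by 0.59 ± 0.11, a value of 0.16 that did not pass with spike-ins. Plagl1 was lower by 0.48 ± 0.078, and by 0.90 with spike-ins. Peg3 was higher by 0.16 ± 0.053 and Impact by 0.18 ± 0.073, both turned to -0.26 and -0.23 by spike-ins. The call of Peg3 was lost without either control 6 h or either cKO 6 h library (0.14 to 0.17), and that of Impact without control 0 h replicate 1 (0.18), control 6 h replicate 1 (0.085), cKO 6 h replicate 1 (0.11) or either cKO 3 h library (0.19). Grb10 did not pass (0.24, or -0.18 with spike-ins), but did without control 6 h replicate 2 (0.43), with library size alone (0.36), without a filter (0.35) and in 1 fit of 18 libraries (0.29). Impact did not pass with DESeq2's Wald test (0.20) or without both cKO 3 h libraries (0.18, adjusted p = 0.0563). Igf2r did not pass (-0.0018), though it was lower by 0.42 with spike-ins. Beside these values, the 8 primitive endoderm markers summed to 408 to 418 CPM in control and 227 to 244 in cKO at 6 h. These sums are mostly Lamb1, with at most 4850 reads in a library, against 309 for Dab2, the next highest. Of 5 markers tested 0 were higher and 1 was lower. Gata6 and Sox7 were at 0 in both control libraries, and no marker was at 0 in both cKO libraries. Counts of these genes were low throughout, with at most 23 reads for Gata6 and 37 for Sox7 in any library. The 10 pluripotency markers summed to 5510 to 5580 and 4190 to 4290 CPM, with 1 higher and 7 lower in cKO. The part of either in the levels of the 9 genes was not tested.

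In the Mettl3 arm, on the TMM scale, Mest, Sgce, Impact and Snrpn fell and Grb10 rose in both knockout lines, while Peg3, Peg10, Plagl1 and Igf2r fell in KO1 and rose in KO2; spike-in scaling turned the sign of Plagl1 and Igf2r in KO1 and of Sgce and Snrpn in KO2. In KO1, 1 of the 9 rose and 8 fell, against 23.9% and 22.2% of 21802 genes tested, with a median of -0.32, and -0.015 over all genes. In KO2, 5 rose and 4 fell, against 24.4% and 26.4%, with a median of 0.39, and -0.030 over all genes. Scaled to spike-ins, 1 rose and 5 fell in KO1, against 34.8% and 13.7% of all genes, and 6 rose and 2 fell in KO2, against 56.7% and 6.69%. The lines share their control libraries, so each comparison is given by its own values. All 9 also passed in the test of KO2 against KO1, 7 higher and 2 lower in KO2, under TMM and spike-in scaling alike, against 21.6% and 24.5% of all genes with TMM and 48.1% and 7.63% with spike-ins. The median of the 9 in that test was 0.56, and 0.0049 over all genes.

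Grb10 gave the largest rise of the 9 in KO1. It was at 45.2 and 46.6 CPM in control, 199 and 193 CPM in KO1 and 68.5 and 67.9 CPM in KO2. The KO1 libraries were thus far above both other groups: the change was 2.09 ± 0.049 in KO1 (4.27-fold, adjusted p = 1.11e-51), above 99.3% of all genes, and 0.57 ± 0.052 in KO2 (adjusted p = 3.39e-16). KO2 was below KO1 by 1.52 ± 0.046. The 17 other coding genes tested within 5 Mb of Grb10 changed by -1.39 to 1.22 in KO1, with a median of 0.14, and all 17 lay below Grb10.

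Mest gave the largest fall of the 9 in KO2. It was at 132 and 140.1 CPM in control, 68.7 and 73.0 CPM in KO1 and 27.1 and 27.1 CPM in KO2, so that the 3 groups did not overlap and KO2 was the lowest. It fell by 0.94 ± 0.051 in KO1 (adjusted p = 4.11e-28) and by 2.33 ± 0.057 in KO2 (5.02-fold, adjusted p = 2.95e-50), where 0.816% of all genes had a lower value. With spike-ins the falls were 0.76 and 1.76. Copg2, which overlaps Mest on the other strand, fell by 0.92 ± 0.074 in KO2. Chromosome 6 as a whole was low in KO2: its 722 coding genes had a median change of -0.42, against 0.0029 in KO1, and the 56 coding genes tested within 5 Mb of Mest had a median of -0.33, of which 1 was lower than Mest. The part of the chromosome in the fall of Mest, Sgce and Copg2 was not tested.

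Plagl1 was at 121 and 126 CPM in control and 110.0 and 114 CPM in KO1, but at 269 and 264 CPM in KO2. It rose by 1.11 ± 0.040 in KO2 (2.16-fold, adjusted p = 6.14e-39) and fell by 0.14 ± 0.042 in KO1, which turned to 0.040 with spike-ins and did not pass without control replicate 2 (-0.10) or KO1 replicate 1 (-0.12), without a filter (-0.11) or in 1 fit of 18 libraries (-0.12). Impact, at chr18:12955852-12992950, fell in both lines, from 133 and 132 CPM in control to 61.0 and 61.8 CPM in KO1 and 68.4 and 71.0 CPM in KO2. Its falls were 1.11 ± 0.049 and 0.93 ± 0.049, or 0.93 and 0.37 with spike-ins. In KO1 none of the 28 other coding genes tested within 5 Mb had a lower value, and in KO2 only 1 had.

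Peg3 and Peg10 were lowest in KO1 and highest in KO2. Peg3 was at 225 and 219.9 CPM in control, 187.5 and 183 CPM in KO1 and 349 and 352 CPM in KO2, changes of -0.26 ± 0.036 and 0.66 ± 0.036 (adjusted p = 2.17e-09 and 5.05e-28). Peg10 was at 177 and 187 CPM in control, 149 and 142 CPM in KO1 and 273 and 284 CPM in KO2, changes of -0.32 ± 0.039 and 0.61 ± 0.039. With spike-ins the change of Peg3 in KO1 was -0.081 and did not pass (adjusted p = 0.0894). Peg10 rose in KO2, where the median gene of its chromosome was at -0.42. Sgce was lower than control in both lines: it was at 15.4 and 15.7 CPM in control, 5.08 and 6.30 CPM in KO1 and 10.5 and 11.4 CPM in KO2. It fell by 1.46 ± 0.13 in KO1, below all 23 coding genes tested near it, and by 0.51 ± 0.12 in KO2 (adjusted p = 0.000312), which turned to 0.054 with spike-ins. From KO1 to KO2, however, Peg10 and Sgce rose by 0.94 ± 0.039 and 0.95 ± 0.14.

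Igf2r, at 342 and 337 CPM in control, 301 and 302 CPM in KO1 and 441 and 449.9 CPM in KO2, fell by 0.17 ± 0.033 in KO1, which turned to 0.011 with spike-ins, and rose by 0.39 ± 0.033 in KO2. Airn, the antisense RNA that silences the paternal copy of Igf2r, was low, at 0.975 CPM in control. It rose by 2.11 in KO2, where the 744 coding genes of chromosome 17 had a median of -0.21, and did not pass in KO1 (-0.14 ± 0.37, adjusted p = 0.793). Snrpn, at 44.9 and 48.3 CPM in control, 30.1 and 31.6 CPM in KO1 and 35.8 and 36.8 CPM in KO2, fell by 0.60 ± 0.069 and 0.36 ± 0.069, and the latter turned to 0.20 with spike-ins. Between the lines, the higher levels of Snrpn (0.24 ± 0.071) and Impact (0.18 ± 0.051) in KO2 were the smallest differences. The former did not pass without KO1 replicate 1 (0.20) or KO2 replicate 2 (0.21), nor the latter without KO2 replicate 2 (0.15). Beside these values, 7 of 9 feeder markers tested rose and 0 fell in KO2, and 3 and 1 in KO1. Over all genes 24.4% rose and 26.4% fell in KO2, and 23.9% and 22.2% in KO1, for this and the marker counts below. Among feeder markers Col1a1 reached 6576 reads in a library, Col1a2 4626 and Acta2 2246, against 747 for Col3a1, the next highest. The 8 primitive endoderm markers, again mostly Lamb1, summed to 141 to 144 CPM in control, 162 to 168 in KO1 and 88.9 to 92.6 in KO2. Of 7 tested, 1 rose and 2 fell in KO1, and 1 rose and 3 fell in KO2. The 10 pluripotency markers summed to 3720 to 3760, 5110 and 3440 to 3480 CPM, with 9 rising and 0 falling in KO1 and 1 and 8 in KO2. No feeder, primitive endoderm or pluripotency marker was at 0 in both libraries of a Mettl3 group. Some had very few reads, with at most 5 for Lum and Twist2, 8 for Foxa2 and 13 for Dcn in any library. The 10 trophoblast markers summed to 53.3 to 53.7 CPM in control, 52.6 to 54.2 in KO1 and 48.1 to 48.6 in KO2. Of these, Prl3d1 was at 0 in every Mettl3 group and Tpbpa in control. The part of other cells in the levels of the 9 genes was not tested.

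**Figure D4:**
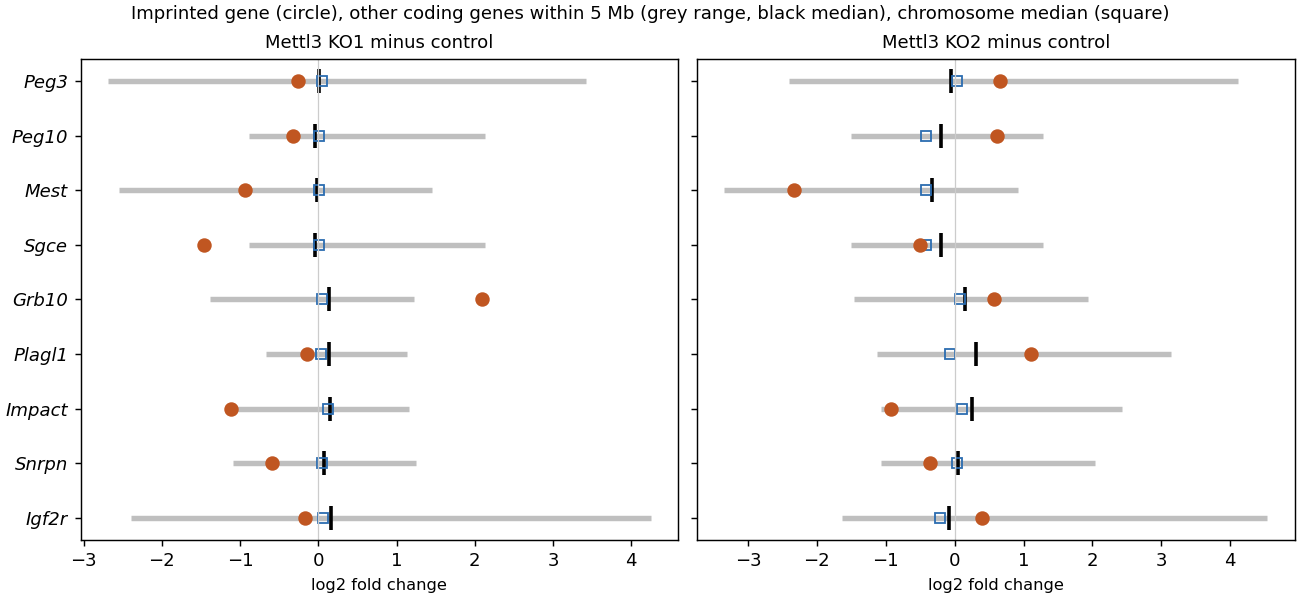
Log2 fold change (horizontal axes) of each of the 9 genes (circle) in KO1 and KO2, beside the range (grey bar) and median (black tick) of the other coding genes tested within 5 Mb and the median of coding genes on its chromosome (square). In KO1 Grb10 (2.09) lies right of its whole bar and Sgce (-1.46) and Impact (-1.11) left of theirs, and in KO2 the squares of the chromosome 6 genes sit at -0.42.

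The genes that lie beside the members in their imprinted clusters were described in the same way. In cKO at 0 h, 2 of 23 tested rose and 6 fell, against 13.5% and 15.8% of all genes, with a median of -0.17. Ndn and Magel2, paternally expressed genes of the Snrpn cluster, rose by 0.98 ± 0.20 and 0.96 ± 0.20. In the same cluster Peg12 fell by 0.86 ± 0.26 and Atp10a by 0.66 ± 0.22. Mkrn3 (0.052), Snhg14 (0.085) and Ube3a (-0.16), also of that cluster, did not pass. Cobl, beside Grb10, fell by 0.65 ± 0.065 and Zfp264, of the Peg3 cluster, by 1.22 ± 0.23. In the decay difference at 6 h, Copg2 was positive (0.33 ± 0.10), which did not pass with spike-ins (0.28, adjusted p = 0.0741), Ppp1r9a was negative (-0.40 ± 0.12) and the other 21 did not pass, against 9.77% and 9.35% of all genes. In KO1, 3 of 21 rose and 7 fell, against 23.9% and 22.2% of all genes, among them Snhg14, the long RNA of the Snrpn cluster (-0.72 ± 0.068), Zfp264 (-0.79 ± 0.11), Cobl (-0.33 ± 0.033) and Phactr2 (0.63 ± 0.093). In KO2, 5 rose and 3 fell, against 24.4% and 26.4%, among them Peg12 (1.69 ± 0.21), Copg2, Casd1 (-0.71 ± 0.088) and Cobl (-0.64 ± 0.033). The falls of Casd1 (-0.15) and Cobl (-0.077) did not pass with spike-ins. Scaled to spike-ins, 2 of these genes rose and 11 fell in cKO at 0 h, against 4.41% and 42.3% of all genes. With that scaling 5 rose and 5 fell in KO1, against 34.8% and 13.7%, and 13 rose and 1 fell in KO2, against 56.7% and 6.69%.

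Imprinted genes of other domains came next: in cKO at 0 h 1 of 15 tested rose and 1 fell, against 13.5% and 15.8% of all genes: Zdbf2 by 0.25 ± 0.060, which turned to -0.12 with spike-ins, and Commd1 by -0.39 ± 0.12. Scaled to spike-ins, 0 rose and 8 fell, against 4.41% and 42.3%. In the decay difference at 6 h, 0 were positive and 3 negative, against 9.77% and 9.35% of all genes: Trappc9 (-0.93 ± 0.14), Zdbf2 (-0.43 ± 0.086) and L3mbtl1 (-1.44 ± 0.49). In the Mettl3 arm 6 of 18 rose and 6 fell in KO1, against 23.9% and 22.2%, and 5 rose and 3 fell in KO2, against 24.4% and 26.4%. Scaled to spike-ins, 9 rose and 3 fell in KO1, against 34.8% and 13.7%, and 14 rose and 0 fell in KO2, against 56.7% and 6.69%. Slc38a4, an amino acid transporter, fell in KO1 (-0.27 ± 0.037), which did not pass with spike-ins (-0.090, adjusted p = 0.0537), and rose in KO2 (0.67 ± 0.036). Zrsr1 fell by 1.00 ± 0.063 in KO1, and Inpp5f rose in KO1 (0.66 ± 0.089) and KO2 (0.96 ± 0.089).

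Another list held 18 factors tied to imprints and DNA methylation, with Tet1 and Tet2 beside those that set or keep marks. Of the 18, 2 rose and 10 fell in cKO at 0 h, against 13.5% and 15.8% of all genes, with a median of -0.21. Dppa3, which guards methylation in the early embryo, fell by 2.03 ± 0.21, the histone methyltransferase Ehmt2 by 0.95 ± 0.087 and the DNA methyltransferase Dnmt3a by 0.65 ± 0.067, while Tet1, which oxidises methylated cytosine, rose by 0.58 ± 0.044. Scaled to spike-ins, 2 rose and 16 fell, against 4.41% and 42.3%. In KO1, 10 rose and 5 fell, against 23.9% and 22.2%, and in KO2, 5 rose and 10 fell, against 24.4% and 26.4%. With spike-ins 13 rose and 3 fell in KO1, against 34.8% and 13.7%, and 14 rose and 1 fell in KO2, against 56.7% and 6.69%. Atrx, a chromatin remodeller, rose by 1.26 ± 0.027 and 1.25 ± 0.027 in KO1 and KO2. Zfp57 fell by 0.88 ± 0.032 in KO2, Tet2 fell there by 0.59 ± 0.028, which did not pass with spike-ins (-0.025), and the DNA methyltransferase Dnmt3b rose by 1.17 ± 0.047. Between the lines, Uhrf1, which guides maintenance methylation, was lower in KO2 than in KO1 by 0.75 ± 0.031 and Zfp57 by 0.61 ± 0.032. In the decay difference at 6 h, 4 were positive and 6 negative, against 9.77% and 9.35% of all genes, among them Zfp57 (0.51 ± 0.079) and Uhrf1 (-0.48 ± 0.070).

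Across the 9 group means, Peg3 and Igf2r had the most similar profiles of any 2 members (Pearson's r = 0.873 of log2 CPM), followed by Peg10 and Sgce (0.814), while Mest and Plagl1 were opposite (-0.889). These values describe 9 groups that share libraries' depth, arm and drug treatment. Among 11365 genes compared in the same way, those most like Peg3 were Qsox1 (0.923), Tnfrsf12a (0.906) and Ap3m2 (0.906). Those most like Peg10 were Wars2 (0.922), Arhgap31 (0.917) and Cfap43 (0.891). For Mest they were Daglb (0.978), Lamb3 (0.939) and Ahi1 (0.934), and for Igf2r they were Cemip2 (0.977), Dip2c (0.966) and Ostm1 (0.964).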

How the data were processed

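For each of the 18 libraries the authors deposited gene-level read counts, unnormalized, and a joint table in which 0 cells differed from them. CASAVA, Trimmomatic 0.38, HISAT2 2.1.0 and HTSeq on the mm10 genome are named in the submitters' processing notes, without options. ERCC spike-in RNA was added before ribosomal RNA removal, per the labels' protocols. Reads with several alignments or genes entered no gene, and 18.0% to 53.5% of unique reads fell in no counted feature. The notes do not say whether introns were counted, so these reads may lie in introns as well as outside genes. In the Ythdc1 arm this share was 49.7% to 53.5% at 0 h and 18.0% to 21.1% at 6 h. Its part in the decay values was not tested.

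Names and positions were taken from GENCODE M21 by identifier without version, which matched 54409 of 54446. The 12 Ythdc1 and the 6 Mettl3 libraries were fitted separately with edgeR 4.0.16 (R 4.3.3), with 1 coefficient per group, TMM factors, filterByExpr (minimum count 10) and the robust quasi-likelihood F test. Benjamini-Hochberg adjustment ran over every gene tested, and an adjusted p below 0.05 was called; SE are of log2 fold changes, SD of CPM, each with n = 2 libraries per group. The biological coefficient of variation was 6.52% and 4.09%. The fit was tested on simulated data with 200 changed genes. Libraries of a group differed by more than counting noise, at 1.751 to 6.721 times the chi-square expected, so none was counted as a duplicate.

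The members and the lists were chosen with earlier results of these data known. All 9 members were named in every comparison, and of each other list at most 4 called genes by the smallest p. Airn, and in cKO at 0 h further genes of the Snrpn cluster, were named beyond that after their values were seen. The 3 coding genes most like Peg3, Peg10, Mest and Igf2r were named too, where genes averaged 50 counts or more. The windows of 5 Mb were added after seeing the data. Alternatives were DESeq2 size factors, library size alone, spike-in scaling, DESeq2 1.42.0 with its Wald test, no low-count filter, a 50-read filter (in 2 libraries), a replicate block, a fit of all 18 libraries and each library left out; leaving out the cKO 3 h libraries was added after seeing the data.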

Additional observations from a re-analysis of the deposited data

Results flagged for a closer look

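The results below are those in which the effect of the same contrast differed between 2 groups, by a test of the difference itself (edgeR's quasi-likelihood test, adjusted over all genes). Values in parentheses are differences of log2 fold changes, cKO minus control or KO2 minus KO1. The change after actinomycin D differed between cKO and control at 3 h for Peg3 (-0.875), Peg10 (-0.25), Mest (0.452), Impact (0.32) and Snrpn (-0.429). At 6 h it differed for Peg3 (-0.716), Impact (0.39), Snrpn (0.613) and Igf2r (-0.513). Of the genes named at both times, Peg3 and Impact kept their sign on the TMM scale, while Snrpn changed sign between 3 and 6 h. With spike-ins, which were few in the cKO 3 h libraries, Peg3 was at 1.48 and -0.766, and Snrpn at 1.93 and 0.558. The 3 h calls of Peg10, Impact and Snrpn and the 6 h calls of Impact and Snrpn were lost without single libraries.

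The effect of the knockout label differed between KO2 and KO1 for all 9 genes: Peg3 (0.92), Peg10 (0.935), Mest (-1.38), Sgce (0.954), Grb10 (-1.52), Plagl1 (1.25), Impact (0.182), Snrpn (0.235) and Igf2r (0.564). Over all genes, 21.6% were higher and 24.5% lower in KO2 than in KO1 by the same test. The libraries of KO2 and KO1 did not overlap in any of the 9. The share of all genes without overlap was not counted, so this is not read as a trait of the 9 genes.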

How the results depend on the processing

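Each of the 99 values of a gene in a comparison was recomputed under each alternative. With the replicate block 98 kept their direction and side of the threshold; the decay difference of Plagl1 at 6 h passed (-0.27), and 7 members stayed called in cKO against control at 0 h. Deviations between replicates 1 and 2 correlated at -0.083 to 0.1 between groups, so the main fit did not pair libraries by number. Whether the numbers mark a shared batch was not tested. Leaving out the cKO 3 h libraries kept 53 of 54 values, with 7 members called at 0 h and 4 in the decay difference at 6 h.

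Spike-in scaling reversed 33 of 99. It called 8361 genes in cKO against control at 0 h, with Grb10 at -0.144. In control at 3 h it gave Peg10 -0.423, Mest -0.123, Impact -0.256 and Snrpn -0.404; at 6 h it called 8 members, with Peg3 -0.0654, Mest -0.191 and Grb10 -0.575. In cKO at 3 h it gave Peg3 1.64, Peg10 1.68, Plagl1 1.44 and Snrpn 1.53; at 6 h Peg3 -0.832, Peg10 -0.962, Grb10 -0.61, Impact -0.677, Snrpn -0.753 and Igf2r -0.423. In the decay difference at 3 h it called 15997 genes and 9 members, with Peg3 1.48, Peg10 2.11, Sgce 2.03, Plagl1 2.35, Snrpn 1.93 and Igf2r 2.22, where spike-in reads were few; at 6 h Peg10 was -0.0379 and Grb10 -0.0348. In cKO against control at 6 h it gave Peg3 -0.26, Grb10 -0.179 and Impact -0.234; in KO1 Plagl1 0.0401 and Igf2r 0.0107; in KO2 Sgce 0.0539 and Snrpn 0.201. The cause was otherwise not tested.

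Other reversals were of values near 0. Peg10 in cKO at 6 h was -0.0139 with DESeq2 size factors, -0.0402 with library size alone, -0.0141 with the DESeq2 Wald test and -0.0575 with the 50-read filter; Sgce there was 0.0196 without a filter. Plagl1 in the decay difference at 3 h was 0.00528, 0.012 and 0.00547 with the same first 3 settings, 0.0278 without a filter and 0.00138 in the fit of 18 libraries; without a filter 3 members were called there. Igf2r in cKO against control at 6 h was 0.015, 0.11, 0.0139, 0.0939 (no filter), 0.0301 (50-read filter) and 0.0498 (18 libraries).

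With 1 library left out, genes called in cKO against control at 0 h ran from 3475 (without control replicate 2) to 5555, and members called in the decay difference at 3 h from 2 to 5. Ranges were -0.134 to 0.0662 for Snrpn in cKO at 0 h, -0.0713 to 0.0653 for Peg10 and -0.816 to 0.178 for Sgce in control at 6 h, -0.00829 to 0.0336 and -0.276 to 0.0147 for them in cKO at 6 h, -0.124 to 0.118 for Plagl1 in the decay difference at 3 h, -0.0533 to 0.0837, -0.252 to 0.742 and -0.127 to 0.209 for Peg10, Sgce and Grb10 in that at 6 h, and -0.0161 to 0.00779 for Igf2r in cKO against control at 6 h. Depth limits Sgce most, with 16 reads in its lowest library.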
